A study of Mus musculus with 6 samples.

Results

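Transcripts of 8 secreted factors of inflammation were followed in mouse kidney podocyte lines. These were the chemokines Cxcl1, Cxcl12, Cxcl16 and Ccl2, the colony-stimulating factors Csf1 and Csf3, lipocalin-2 (Lcn2) and the complement protein C3. They were picked by name, all 8 were present among the 12803 genes of the table, and their difference between the lines was known when they were picked. The difference is therefore described for them without a test. The samples were 3 RNA-seq libraries of a podocyte-derived line of genotype Myosin 1e KO (called KO), set against 3 libraries of the murine podocyte line labelled Mundel and WT (called WT). A heterozygous genotype that the design text mentions was not analysed here. The labels give no treatment, age, strain or time in culture. Each genotype stood as a single line, so the genotype and any other difference between the lines cannot be told apart. The labels do not say how the cultures of a line were kept apart, so the spread between libraries may be technical.

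Depth was 35447096 to 42106461 reads per library in the listed genes, at which 3 reads equal 0.0703 to 0.0856 CPM (counts-per-million). Myo1e, the gene named in the KO label, had 18.9, 16.3 and 16.8 CPM in the KO libraries, against 184, 180 and 168 CPM in WT libraries. Of 12616 genes tested with limma, 68.1% passed at an adjusted p under 0.05, 34.3% higher and 33.8% lower in the KO line. The groups did not overlap in 73.5%, with 37.2% higher and 36.4% lower in the KO line. In bulk RNA, fewer cells making a transcript and less transcript per cell cannot be told apart.

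Chemokines are small secreted proteins that guide cells along a gradient by binding receptors on their surface, and the spacing of their first cysteines names the CC and CXC families. Colony-stimulating factors drive the growth and survival of macrophages (Csf1) and neutrophils (Csf3). Lipocalin-2 binds bacterial siderophores and so withholds iron, and is used as a marker of injured kidney tubule. C3 is the protein on which all routes of complement activation meet. In the glomerulus, podocyte-derived Cxcl12 acts on endothelium through Cxcr4 during vessel formation, and complement and monocyte-attracting chemokines are studied in glomerular disease.

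The 8 genes split into 3 sets. Cxcl16, Csf3 and Lcn2 were higher in every KO library than in any WT library, Cxcl1, Cxcl12 and C3 were lower in every KO library than in any WT library, and Ccl2 and Csf1 overlapped. Thus 6 of 8 did not overlap, beside 73.5% of all genes (37.2% higher and 36.4% lower in the KO line). Between the group means, 5 of 8 differed by over 10-fold, beside 9.24% of all genes. Nothing is read from these shares, since the contrast was known when the genes were chosen. All 8 passed the filter on low values, but Cxcl12 did so through the WT libraries alone and Csf3 through the KO libraries alone.

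**Figure D1:**
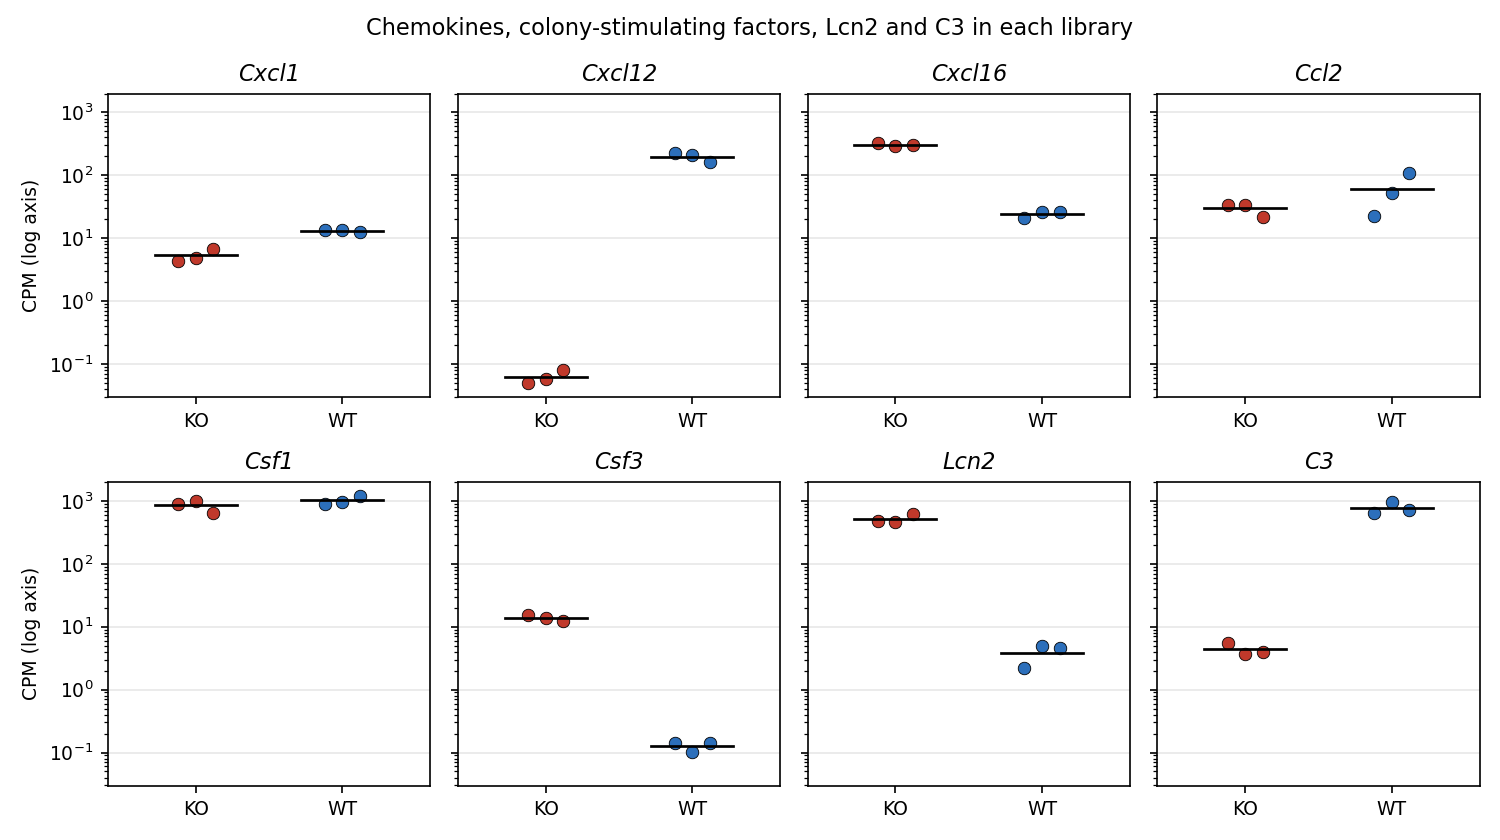
Level of each of the 8 genes in CPM (log axis) in the 3 KO libraries (red, left) and the 3 WT libraries (blue, right); points are libraries and bars are group means. Cxcl16, Csf3 and Lcn2 sit higher in KO, Cxcl1, Cxcl12 and C3 sit lower in KO, and the points of Ccl2 and Csf1 overlap.

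The order of levels differed between the lines. Per kilobase of exon, Lcn2 was first in the KO line at 200.2 ± 32 CPM per kb, followed by Csf1 at 161 ± 36, and these overlapped between libraries. Cxcl16 at 101.4 ± 6.9, Ccl2 at 26.3 ± 6.2, Csf3 at 9.84 ± 1.0, Cxcl1 at 2.85 ± 0.68, C3 at 0.850 ± 0.20 and Cxcl12 at 0.00758 ± 0.0019 CPM per kb followed without overlap between neighbours (SD, n = 3). In the WT line Csf1 was first at 193 ± 32 CPM per kb and overlapped C3 at 151 ± 33. Ccl2 at 54.0 ± 39 overlapped Cxcl12 at 24.3 ± 4.2, and Cxcl16 at 8.07 ± 0.94 overlapped Cxcl1 at 6.96 ± 0.32. Lcn2 at 1.48 ± 0.56 and Csf3 at 0.0909 ± 0.015 CPM per kb came last, without overlap. Csf1 was thus among the leading genes in both lines, while Lcn2 stood near the top in KO and near the bottom in WT, and C3 the other way round. The 8 genes together summed to 1734 ± 112 CPM in KO and 2096 ± 238 CPM in WT cells.

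The windows around the start sites of 5 of the 8 genes, from 250 bases before to 50 after, were taken from RefSeq (GRCm38.p6) to show which known binding motifs lie beside them. No window was available for Cxcl16, Ccl2 and Csf3 in the sources used here. Lcn2 is thus the only gene higher in KO with a window, so motifs of higher and lower genes cannot be compared. The motifs searched on both strands were the NF-kB consensus, AP-1 (TGANTCA), C/EBP (TTGCNNAA) and STAT (TTCNNNGAA), and capitals mark every match. They lie on chr5:90890995-90891294 (plus strand), chr6:117168285-117168584 (plus), chr3:107760420-107760719 (minus), chr2:32387690-32387989 (minus) and chr17:57228087-57228386 (minus), in the order printed, each written 5′ to 3′ on its gene's strand. Starts are those of RefSeq and can lie inside the gene spans given further on, which are from GENCODE, as for Lcn2.
Cxcl1: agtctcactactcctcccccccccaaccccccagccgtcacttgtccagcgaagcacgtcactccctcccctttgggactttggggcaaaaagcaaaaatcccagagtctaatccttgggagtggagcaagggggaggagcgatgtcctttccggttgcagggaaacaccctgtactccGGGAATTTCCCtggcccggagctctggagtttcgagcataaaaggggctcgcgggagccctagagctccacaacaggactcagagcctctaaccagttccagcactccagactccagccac
Cxcl12: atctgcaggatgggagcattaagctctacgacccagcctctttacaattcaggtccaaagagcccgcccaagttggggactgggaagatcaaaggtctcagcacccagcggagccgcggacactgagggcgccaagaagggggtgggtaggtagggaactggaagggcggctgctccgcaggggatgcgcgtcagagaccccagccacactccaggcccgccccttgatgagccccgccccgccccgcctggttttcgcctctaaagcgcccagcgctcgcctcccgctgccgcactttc
Csf1: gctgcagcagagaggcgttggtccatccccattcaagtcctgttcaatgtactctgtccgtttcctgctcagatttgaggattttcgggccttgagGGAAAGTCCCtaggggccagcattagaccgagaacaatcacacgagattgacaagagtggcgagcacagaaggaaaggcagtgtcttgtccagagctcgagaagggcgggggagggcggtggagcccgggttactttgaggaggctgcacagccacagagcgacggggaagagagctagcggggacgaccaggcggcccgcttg
Lcn2: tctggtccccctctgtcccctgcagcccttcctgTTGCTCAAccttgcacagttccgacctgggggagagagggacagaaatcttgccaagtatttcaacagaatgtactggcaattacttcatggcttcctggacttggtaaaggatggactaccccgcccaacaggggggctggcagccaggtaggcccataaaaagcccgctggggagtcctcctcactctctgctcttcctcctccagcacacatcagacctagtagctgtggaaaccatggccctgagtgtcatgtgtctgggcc
C3: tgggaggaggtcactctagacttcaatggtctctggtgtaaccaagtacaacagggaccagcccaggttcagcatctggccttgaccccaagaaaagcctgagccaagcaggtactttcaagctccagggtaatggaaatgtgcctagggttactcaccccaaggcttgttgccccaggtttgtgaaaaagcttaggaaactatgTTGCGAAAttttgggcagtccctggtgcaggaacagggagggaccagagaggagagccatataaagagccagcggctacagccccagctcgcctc
The Cxcl1 window held the NF-kB consensus on both strands, as 2 matches that overlap and begin 71 and 70 bases before the start. The Csf1 window held it once, on the minus strand of the printed sequence, beginning 154 bases before the start. Lcn2 and C3 each held 1 C/EBP match, beginning 216 and 45 bases before the start, and the Cxcl12 window held none of the 4 motifs. No AP-1 or STAT match was in these 5 windows. Of 32851 windows of the same length, 8.46% held the NF-kB consensus, 7.81% AP-1, 10.8% C/EBP and 8.30% STAT. Lcn2 and C3 differed between the lines in opposite directions, and both windows carried the C/EBP letters. These are matches of letters only.

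Cxcl1 (chr5:90891241-90893115, plus strand of GRCm38, a protein-coding gene) encodes a CXC chemokine that draws neutrophils through the receptor Cxcr2. It measured 4.31, 4.94 and 6.77 CPM in the KO libraries, against 13.4, 13.3 and 12.4 CPM in WT libraries. The groups did not overlap, and the WT libraries lay closer together than the KO libraries. The means were 5.34 ± 1.3 CPM in KO and 13.0 ± 0.60 CPM in WT cells (SD, n = 3 each), a difference of -1.31 in log2 CPM. Cxcr2 was not listed in the table.

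Its closest relatives in the table lie beside it on chromosome 5. Cxcl5, another neutrophil chemokine 130 kb away, had 0 reads in the KO libraries, against 1.36, 2.04 and 1.07 CPM in WT libraries. Against 3 reads over the group, Cxcl5 was at least 56.7-fold lower in the KO line (limma adjusted p = 2.91e-06). Cxcl5 passed the filter on low values through the WT libraries alone, so its direction was fixed by it. Ppbp, a platelet chemokine 121 kb away, averaged 7.48 ± 2.4 CPM in KO and 14.3 ± 7.2 CPM in WT cells and passed as lower (limma adjusted p = 0.0476), although the groups overlapped. The call was lost when KO replicate 1, KO replicate 2 or WT replicate 1 was left out (adjusted p 0.124, 0.149 and 0.111). It was also lost without an intensity trend (0.0769) and with the replicate number as a block (0.0512). In all Ppbp passed in 9 of 14 alternatives, with a range of 0.0255 to 0.149.

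Cxcl12 (chr6:117168535-117181367, plus strand of GRCm38, a protein-coding gene) encodes the chemokine SDF-1, which binds Cxcr4 and the scavenging receptor Ackr3. The KO libraries held 2, 2 and 3 reads, or 0.0492, 0.0571 and 0.0796 CPM, and the WT libraries 227, 209 and 160 CPM. Every KO library was at or below the level of 3 reads, while in WT the gene stood above 91.5% of the tested genes. Over the groups this was 7 reads in KO and 23426 in WT, a ratio of WT to KO of 3250 with an exact 95% counting interval of 1577 to 8085. Intervals of this kind cover counting error only. By its difference of -11.14 in log2 CPM it ranked 4 from the lowest of the 12616 genes. The size of that difference depends on the prior count added before taking logs.

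Ackr3, the scavenging receptor, had 0.615, 1.17 and 0.690 CPM in the KO libraries, against 28.8, 23.9 and 20.4 CPM in WT libraries, and fell by 4.88 on the log2 scale (SE 0.26, limma adjusted p = 7.86e-07). Only KO replicate 2 was above 0 log2 CPM (0.26), so Ackr3 needed WT libraries to pass the filter on low values. Cxcr4 was not listed in the table. Of proteases that cut Cxcl12, Mmp2 averaged 0.544 ± 0.19 CPM in KO and 124.6 ± 16 CPM in WT cells and fell (log2 difference -7.82, limma adjusted p = 3.77e-08). Mmp14, which activates Mmp2, held 5 reads in the KO line and 16252 in the WT line, a WT-to-KO ratio of 3157 (counting interval 1353 to 9724, limma adjusted p = 9.68e-07). All 5 KO reads lay in replicate 3, and without that library the KO level was 0 CPM. Mmp2 and Mmp14 passed the filter on low values through the WT libraries alone, so their direction was fixed by it.

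Cxcl16 (chr11:70453983-70459984, minus strand of GRCm38, a protein-coding gene) encodes a chemokine that is made as a transmembrane protein, binds Cxcr6 when shed and takes up oxidised lipoprotein when held at the surface. It measured 329, 289 and 300.4 CPM in the KO libraries, against 21.1, 25.8 and 26.2 CPM in WT libraries. The groups were far apart and tight, at 306 ± 21 CPM in KO and 24.4 ± 2.8 CPM in WT cells (SD, n = 3 each), a log2 difference of 3.65. Zmynd15 overlaps it on the opposite strand and averaged 6.51 ± 0.30 CPM in KO and 2.15 ± 0.48 CPM in WT cells. The strand setting of the counting is not given in the sources used here, so reads of the overlap could not be assigned with certainty. Cxcr6 was not listed in the table.

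Shedding of Cxcl16 is the work of Adam10 and Adam17, with Rhbdf1 and Rhbdf2 needed for Adam17 to mature. Adam10 averaged 187 ± 23 CPM in KO and 229 ± 12 CPM in WT cells (log2 difference -0.30, limma adjusted p = 0.0307). Adam17 averaged 85.4 ± 4.5 CPM in KO and 73.1 ± 1.5 CPM in WT cells (log2 difference 0.22, limma adjusted p = 0.0226). Leaving out 1 library in turn ended the call of Adam10 in 4 of 6 cases, as did leaving out the intensity trend, (adjusted p over all alternatives 0.0194 to 0.0825) and that of Adam17 in 3 of 6 (0.0227 to 0.0916). Rhbdf2 rose, at 91.1 ± 7.7 CPM in KO and 53.6 ± 1.4 CPM in WT cells (log2 difference 0.76, limma adjusted p = 6.12e-05).

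Ccl2 (chr11:82035571-82037453, plus strand of GRCm38, a protein-coding gene) encodes MCP-1, the CC chemokine that draws monocytes through Ccr2. It measured 34.1, 33.8 and 21.7 CPM in the KO libraries, against 22.9, 52.1 and 109 CPM in WT libraries. The groups overlapped, since WT replicate 1 lay below KO replicates 1 and 2. The KO libraries differed 1.57-fold between the highest and the lowest, and the WT libraries 4.78-fold. The means were 29.9 ± 7.1 CPM in KO and 61.4 ± 44 CPM in WT cells. The log2 difference was -0.79 in all libraries, -0.24 without WT replicate 3 and -1.37 without WT replicate 1. The annotated gene Gm17268 overlaps Ccl2 on the opposite strand and was not listed in the table, nor was Ccr2.

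Ccl7, a relative of Ccl2 that lies 8.26 kb from it, had 1.01, 0.856 and 0.478 CPM in the KO libraries, against 1.62, 3.08 and 6.42 CPM in WT libraries. Here the groups did not overlap, and Ccl7 fell by 2.05 on the log2 scale (SE 0.49, limma adjusted p = 0.00554). Only KO replicate 1 was above 0 log2 CPM (0.05), so Ccl7 needed WT libraries to pass the filter on low values. Its WT level was 3.70 ± 2.5 CPM with all libraries and 2.35 CPM without replicate 3, and it passed without that library too (adjusted p = 0.0119, range over 13 alternatives 0.00101 to 0.0262).

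Csf1 (chr3:107741048-107760469, minus strand of GRCm38, a protein-coding gene) encodes the growth factor of macrophages, M-CSF, which acts through Csf1r. It measured 898, 1009 and 641 CPM in the KO libraries, against 897, 947 and 1207 CPM in WT libraries. The groups overlapped, with the lowest library in KO and the highest in WT. The means were 849 ± 189 CPM in KO and 1017 ± 167 CPM in WT cells, a log2 difference of -0.27. Csf1 stood above 99.2% of the tested genes in KO and above 99.4% in WT.

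Il34, which encodes the second ligand of Csf1r, differed far more than Csf1. It had 82.7, 93.0 and 103 CPM in the KO libraries, against 7.89, 8.43 and 11.1 CPM in WT libraries, and rose by 3.35 on the log2 scale (SE 0.15, limma adjusted p = 2.72e-07). Csf1r had 54.1, 73.1 and 54.7 CPM in the KO libraries, against 33.7, 45.2 and 54.1 CPM in WT libraries. Those groups were separated by less than 1 CPM, and Csf1r did not pass (log2 difference 0.46, limma adjusted p = 0.0505). It passed in 6 of 14 alternatives, with adjusted p from 0.0138 to 0.168, the lowest being without WT replicate 3.

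Csf3 (chr11:98701263-98703629, plus strand of GRCm38, a protein-coding gene) encodes G-CSF, the growth factor of neutrophils, which acts through Csf3r. It measured 15.4, 13.9 and 12.5 CPM in the KO libraries, against 0.141, 0.103 and 0.141 CPM in WT libraries. The WT libraries held 6, 4 and 5 reads, just above the level of 3 reads. Over the groups this was 1580 reads in KO and 15 in WT, a ratio of KO to WT of 108 with an exact 95% counting interval of 65.6 to 194. Csf3r was not listed in the table. So the factor that feeds neutrophils and the chemokine Cxcl1 that draws them stood on opposite sides of the comparison.

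Of the 6 other haematopoietic growth factors and receptors tested, 2 rose (Il34 and Csf2ra) and 3 fell (Epor, Flt3l and Kitl), beside 34.3% and 33.8% of all genes. Csf2ra, a receptor chain for GM-CSF, averaged 12.7 ± 1.6 CPM in KO and 5.76 ± 0.46 CPM in WT cells (limma adjusted p = 0.000134). Kitl, which encodes stem cell factor, averaged 6.36 ± 0.99 CPM in KO and 12.5 ± 2.6 CPM in WT cells (limma adjusted p = 0.00165). Epor, the erythropoietin receptor, averaged 1.11 ± 0.70 CPM in KO, or 0.705 CPM without KO replicate 3, and 5.36 ± 0.73 CPM in WT cells (limma adjusted p = 0.000555). Epor needed WT libraries to pass the filter on low values, since only KO replicate 3 was above 0 log2 CPM (0.95). The median log2 difference of the 6 was -0.25, beside 0.01 for all genes tested.

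Lcn2 (chr2:32384633-32388252, minus strand of GRCm38, a protein-coding gene) encodes lipocalin-2, also called NGAL. It measured 482, 470.5 and 623 CPM in the KO libraries, against 2.20, 4.92 and 4.52 CPM in WT libraries. The groups were far apart, and WT replicate 1 was well below the other WT libraries. The means were 525 ± 85 CPM in KO and 3.88 ± 1.5 CPM in WT cells (SD, n = 3 each), a log2 difference of 7.14. In the KO line Lcn2 stood above 98.3% of the tested genes, and in the WT line above 14.2%. Lcn2 took 25.8% to 38.7% of the CPM of the 8 genes in the KO libraries and 0.121% to 0.221% in the WT libraries.

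The receptors of lipocalin-2 went opposite ways. Slc22a17, a lipocalin-2 receptor, had 4.13, 5.11 and 5.49 CPM in the KO libraries, against 1.10, 1.11 and 0.989 CPM in WT libraries and rose by 2.17 on the log2 scale (SE 0.19, limma adjusted p = 1.67e-05). Lrp2, which encodes megalin, the endocytic receptor that takes up filtered lipocalin-2, had 16.7, 17.2 and 8.20 CPM in the KO libraries, against 200.3, 438 and 355 CPM in WT libraries. It fell by 4.56 on the log2 scale (SE 0.34, limma adjusted p = 6.88e-06).

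Of 16 tested genes of iron uptake, iron storage and lipocalin receptors, 5 rose and 8 fell, beside 34.3% and 33.8% of all genes, with a median log2 difference of -0.42 beside 0.01 for all genes. Slc40a1, the iron exporter ferroportin, averaged 84.9 ± 13 CPM in KO and 9.26 ± 1.3 CPM in WT cells (log2 difference 3.19, limma adjusted p = 2.82e-07). Fth1, the ferritin heavy chain, which has processed pseudogenes that may share reads, averaged 480 ± 63 CPM in KO and 2797 ± 250 CPM in WT cells (log2 difference -2.55, limma adjusted p = 6.5e-07). Bdh2, an enzyme of mammalian siderophore synthesis, averaged 0.878 ± 0.11 CPM in KO and 13.71 ± 3.9 CPM in WT cells (log2 difference -3.89, limma adjusted p = 1.36e-06). Bdh2 needed WT libraries to pass the filter on low values, since only KO replicate 2 was above 0 log2 CPM (0.04). Tfrc, the transferrin receptor, was at 136 ± 15 CPM in KO and 103 ± 17 CPM in WT cells and passed (limma adjusted p = 0.0263, 0.00408 to 0.0903 over the alternatives), but not without KO replicate 2 (adjusted p = 0.0903), KO replicate 3 (0.0726) or WT replicate 1 (0.0572), nor without an intensity trend (0.0527).

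C3 (chr17:57203970-57228136, minus strand of GRCm38) is a protein-coding gene and the host of the microRNA gene Mir6978. It measured 5.56, 3.62 and 3.93 CPM in the KO libraries, against 638, 967 and 727 CPM in WT libraries. Every KO library was far below every WT library. The means were 4.37 ± 1.0 CPM in KO and 777 ± 170 CPM in WT cells (SD, n = 3 each), a log2 difference of -7.47. In the KO line C3 stood above 17.3% of the tested genes, and in the WT line above 99.0%. Its level was 0.850 CPM per kb in KO and 151 CPM per kb in WT cells, where its libraries overlapped those of Csf1.

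All 8 of the other complement components of the table fell, with a median log2 difference of -3.24. Of these, 6 (C1ra, C2, C4a, C4b, C8g and Colec12) passed the filter on low values through the WT libraries alone, so for them the filter fixed the direction. The count and the median are therefore not set against those of all genes. Cfp and Masp1 were above 0 log2 CPM in both lines. Cfp averaged 1.81 ± 0.33 CPM in KO and 3.29 ± 0.49 CPM in WT cells (limma adjusted p = 0.00643). Masp1 averaged 42.9 ± 18 CPM in KO and 152 ± 7.4 CPM in WT cells (limma adjusted p = 0.000375). The components described next, C2, C4b and Colec12, are among those whose direction the filter fixed. C2, the protease of the classical C3 convertase, averaged 0.133 ± 0.12 CPM in KO and 29.6 ± 2.8 CPM in WT cells (limma adjusted p = 1.24e-06), and its KO level was 0.0674 CPM without replicate 3. C4b, the other part of that convertase, had 6 reads in KO and 2057 in WT, a WT-to-KO ratio of 333 (153 to 908, limma adjusted p = 4.06e-06), and its KO level of 0.0531 CPM was 0.0797 CPM without replicate 3. Colec12, a collectin that can start the alternative pathway, averaged 0.132 ± 0.023 CPM in KO and 6.21 ± 2.1 CPM in WT cells (limma adjusted p = 1.48e-06). C4a and C4b are near-identical copies, so reads may be split between them. Another 18 components that were looked for were not in the table.

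Regulators of complement and receptors for it were mixed, with 5 of 9 higher and 2 lower, beside 34.3% and 33.8% of all genes, and a median log2 difference of 0.44. The filter fixed the direction of 3 of them, Cd55 included. Cd55, Susd4 and Clu rose. Cd55, which speeds the decay of C3 convertases, averaged 3.85 ± 0.85 CPM in KO and 0.0932 ± 0.021 CPM in WT cells (limma adjusted p = 1.34e-06). Susd4, a membrane protein that binds C1q, averaged 173 ± 12 CPM in KO and 38.5 ± 2.7 CPM in WT cells (limma adjusted p = 1.67e-07). Clu, the soluble inhibitor clusterin, averaged 849 ± 74 CPM in KO and 257 ± 42 CPM in WT cells (limma adjusted p = 6.27e-06). The receptor C3ar1 was not listed in the table.

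**Figure D2:**
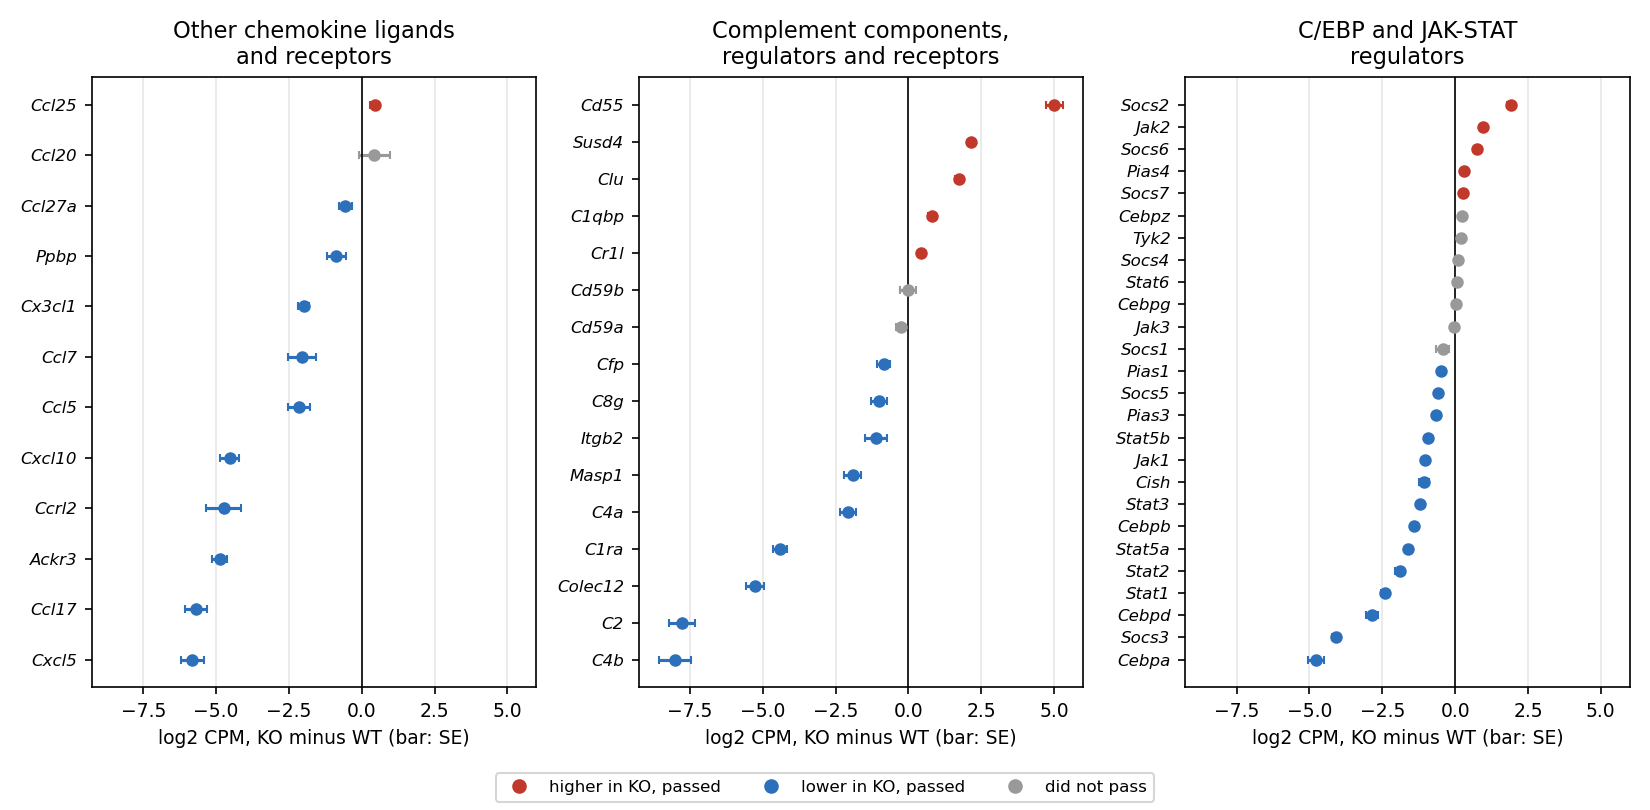
Difference between the lines (log2 CPM, KO minus WT, points; bars are the limma SE) for the tested chemokine ligands and receptors other than the 8 genes, for complement genes other than C3 (1 regulator is not drawn), and for C/EBP and JAK-STAT regulators. Red points passed and were higher in KO, blue points passed and were lower, grey did not pass; all 8 complement components lie left of 0, and Cd55, Susd4 and Clu lie right of it.

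Of 31 other chemokine ligands, 12 were in the table and 10 were tested, of which 1 rose and 8 fell, beside 34.3% higher and 33.8% lower over all genes. The median log2 difference was -2.03. Ccl17 and Cxcl5 passed the filter through the WT libraries alone, so their direction was fixed by it. Leaving out 1 library in turn left 6 to 8 of the 10 past the threshold. Cxcl10, which draws T cells through Cxcr3, had 8.12, 6.76 and 5.25 CPM in the KO libraries, against 97.2, 147 and 256 CPM in WT libraries (log2 difference -4.54, SE 0.32, limma adjusted p = 4.4e-06). Ccl17, a ligand of Ccr4, averaged 0.198 ± 0.082 CPM in KO and 11.8 ± 5.2 CPM in WT cells (limma adjusted p = 3.35e-06). Ccl25, which guides cells to gut and thymus, averaged 10.2 ± 1.1 CPM in KO and 7.55 ± 1.1 CPM in WT cells (limma adjusted p = 0.0284). The call was lost when KO replicate 2 or 3 or WT replicate 1 or 2 was left out (adjusted p 0.0681 to 0.0869, lowest over all alternatives 0.0166). Of 23 chemokine receptors, Ackr3 and Ccrl2 were in the table, and both fell, Ccrl2 having passed the filter through WT alone. Ackr3 also needed WT libraries to pass the filter, since only KO replicate 2 was above 0 log2 CPM. Ccrl2, which presents chemerin, had 6 reads in KO and 213 in WT, a WT-to-KO ratio of 34.5 (15.6 to 95.01, limma adjusted p = 0.000146). Its KO level of 0.0551 CPM was 0.0826 CPM without replicate 1.

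Other inflammatory cytokines went both ways, with 6 of 15 higher and 6 lower, beside 34.3% and 33.8% of all genes, and a median log2 difference of -0.03. The filter fixed the direction of 5 of them, Il23a and Tnfsf10 included. Il1rn, the antagonist of the interleukin-1 receptor, averaged 11.3 ± 3.1 CPM in KO and 1.65 ± 0.87 CPM in WT cells (limma adjusted p = 0.000148). Il23a had 532 reads in KO and 3 in WT, a KO-to-WT ratio of 183 (62.1 to 888, limma adjusted p = 3.71e-06), and its WT level of 0.0267 CPM was 0.0117 CPM without replicate 3. Tnfsf10, the death ligand TRAIL, averaged 0.672 ± 0.23 CPM in KO and 7.31 ± 0.91 CPM in WT cells (limma adjusted p = 6.52e-06).

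Among 29 cytokine and Toll-like receptors, 10 rose and 17 fell, or 93.1% in all beside 68.1% of all genes, with a median log2 difference of -0.53. The filter fixed the direction of 5 of them, Tlr5 and Il17re included. Tlr5, the flagellin receptor, averaged 23.0 ± 1.1 CPM in KO and 0.0784 ± 0.029 CPM in WT cells (limma adjusted p = 5.6e-08). Il17re, a receptor chain for interleukin-17C, averaged 38.0 ± 2.9 CPM in KO and 0.505 ± 0.31 CPM in WT cells, or 0.324 CPM without WT replicate 1 (limma adjusted p = 1.01e-06). Lifr, the receptor for LIF, averaged 0.974 ± 0.26 CPM in KO and 64.1 ± 16 CPM in WT cells (limma adjusted p = 2.26e-07). Osmr, the receptor for oncostatin M, averaged 20.1 ± 2.1 CPM in KO and 154 ± 12 CPM in WT cells (limma adjusted p = 7.35e-08).

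The NF-kB pathway, which drives Cxcl1, Ccl2, Csf3 and Lcn2 in inflamed tissue, had members on both sides. Of 35 genes tested, 13 were called higher and 11 lower, or 68.6% in all beside 68.1% of all genes, with a median log2 difference of 0.09. The filter fixed the direction of Irak3, which was lower, and of Nfkbid, which was higher. The subunits Rela, at 194 ± 25 CPM in KO and 181 ± 1.6 CPM in WT cells, and Nfkb1, at 151 ± 21 CPM in KO and 153 ± 20 CPM in WT cells, did not pass (limma adjusted p = 0.41 and 0.924). Rela passed without KO replicate 3 (adjusted p = 0.0376, range over 14 alternatives 0.0376 to 0.889). Tnfaip3, the inhibitor A20 and itself a target of the pathway, averaged 256 ± 31 CPM in KO and 36.6 ± 7.5 CPM in WT cells (log2 difference 2.81, limma adjusted p = 7.96e-07). Irak2, a kinase of Toll-like receptor signalling, averaged 43.2 ± 6.0 CPM in KO and 14.0 ± 0.35 CPM in WT cells (limma adjusted p = 4.5e-06). Traf5 averaged 6.99 ± 1.6 CPM in KO and 34.8 ± 2.0 CPM in WT cells (limma adjusted p = 4.14e-06), and Bcl3, a nuclear cofactor, 4.31 ± 0.83 CPM in KO and 10.98 ± 1.7 CPM in WT cells (limma adjusted p = 0.000247).

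C/EBP factors and the JAK-STAT pathway are further known inducers of Lcn2 and C3. Of 26 genes tested, 5 were called higher and 14 lower, or 73.1% in all beside 68.1% of all genes, with a median log2 difference of -0.53. Cebpa averaged 1.02 ± 0.24 CPM in KO and 29.0 ± 9.0 CPM in WT cells (log2 difference -4.77, limma adjusted p = 1.26e-06). Cebpd averaged 5.001 ± 1.3 CPM in KO and 35.4 ± 1.1 CPM in WT cells (log2 difference -2.85, limma adjusted p = 3.8e-06). Cebpb averaged 10.4 ± 0.54 CPM in KO and 27.8 ± 3.1 CPM in WT cells (log2 difference -1.41, limma adjusted p = 1.25e-05). Socs3, a feedback inhibitor that STAT3 induces, averaged 4.50 ± 0.64 CPM in KO and 76.7 ± 3.8 CPM in WT cells (log2 difference -4.09, limma adjusted p = 4.07e-08), and Stat3 itself 117 ± 10 CPM in KO and 268 ± 12 CPM in WT cells (log2 difference -1.19, limma adjusted p = 5.37e-06). Its relative Socs2 averaged 125.4 ± 9.0 CPM in KO and 33.6 ± 7.5 CPM in WT cells (limma adjusted p = 7.22e-06). Cebpg, at 77.0 ± 6.7 CPM in KO and 75.2 ± 5.5 CPM in WT cells, did not pass (limma adjusted p = 0.758). Jak2 rose, at 216 ± 24 CPM in KO and 109 ± 3.4 CPM in WT cells (limma adjusted p = 2.65e-05). In the KO line Lcn2 was higher, and C3, Cebpa, Cebpb, Cebpd and Stat3 were lower. The part of these factors in the differences of Lcn2 and C3 was not tested.

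Of 13 tested genes that control the decay of cytokine transcripts, 2 rose and 6 fell, or 61.5% in all beside 68.1% of all genes, with a median log2 difference of -0.18. Hnrnpd, which binds AU-rich elements, averaged 61.5 ± 13 CPM in KO and 182 ± 40 CPM in WT cells (limma adjusted p = 0.000137). Among acute-phase and antimicrobial proteins, 5 of 21 listed were tested, 2 rose and 3 fell. The filter fixed the direction of 4 of the 5, Lbp and Pigr included, so the count is not set against that of all genes. Lbp, the carrier of bacterial lipopolysaccharide, averaged 0.281 ± 0.084 CPM in KO and 129 ± 25 CPM in WT cells (limma adjusted p = 2.8e-08). Pigr, the transporter of polymeric antibodies, had 1278 reads in KO and 4 in WT, a KO-to-WT ratio of 329 (128 to 1209, limma adjusted p = 1.9e-06), and its WT level of 0.0337 CPM was 0.0117 CPM without replicate 2. Of 11 proteases that cut chemokines, with their regulators, 3 rose and 7 fell, beside 34.3% and 33.8% of all genes, with the direction of Mmp2 and Mmp14 fixed by the filter.

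**Figure D3:**
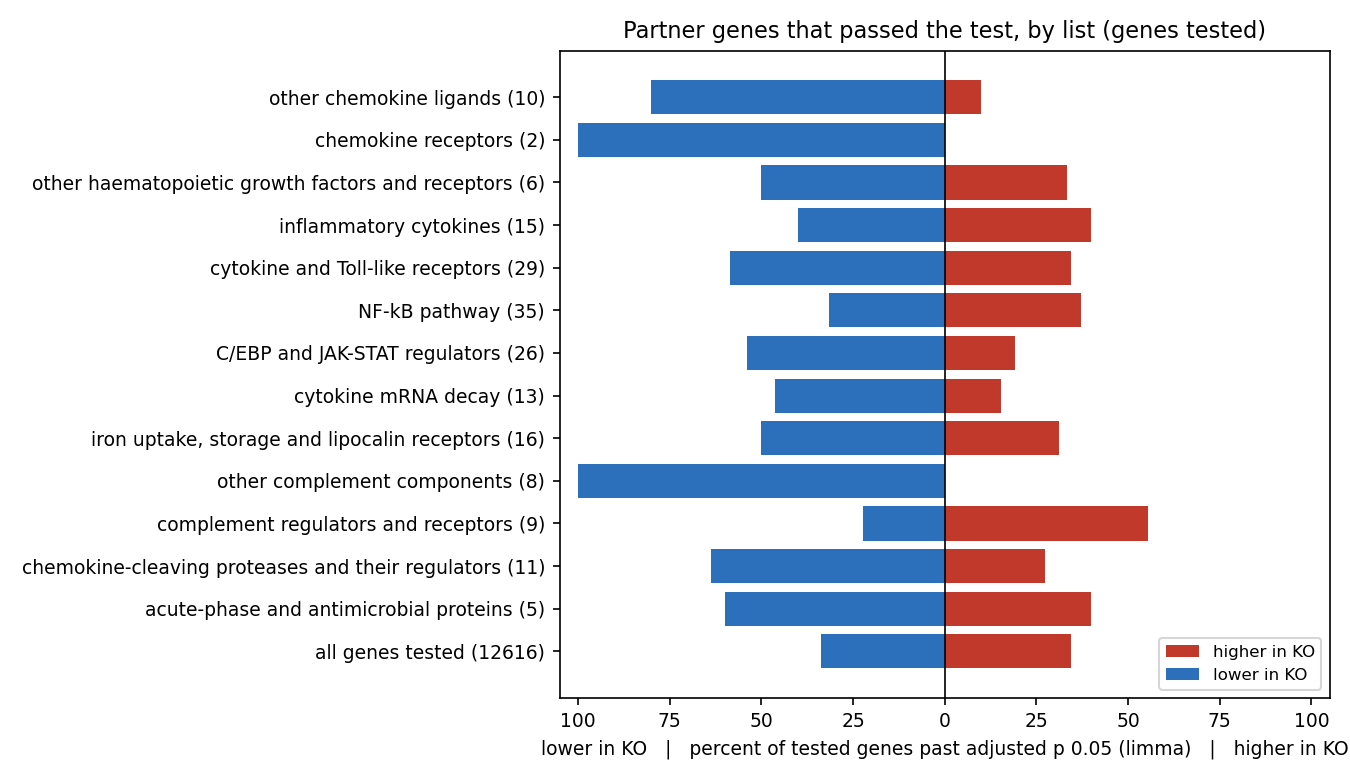
Share of the tested genes of each list, in percent, that passed limma at an adjusted p under 0.05, higher in KO (red, right) or lower in KO (blue, left), with the number of genes tested in brackets and all 12616 genes at the bottom. The bar of complement components lies on the lower side, where the filter placed 6 of the 8, and the NF-kB bar is close to that of all genes.

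The spread between libraries of a line differed among the 8 genes. The SD of Ccl2 in log2 CPM was 0.37 in the KO libraries, larger than that of 90.1% of tested genes there, and 1.13 in the WT libraries, larger than that of 99.7%. The SD of Lcn2 was 0.22 in the KO libraries and 0.63 in the WT libraries, where it was larger than that of 97.3% of tested genes. The counting error of Lcn2 in WT was 8.22% of its mean, against an observed coefficient of variation of 37.8%. Cxcl16 had an SD of 0.10 in the KO libraries and 0.17 in the WT libraries. Csf3 had one of 0.15 in the KO libraries. Cxcl1 had an SD of 0.33 in the KO libraries and 0.07 in the WT libraries. For Cxcl12 in KO the counting error of 65.5% of the mean exceeded the observed 25.5%, and for Csf3 in WT the 44.7% exceeded the observed 16.8%, so these spreads cannot be read.

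**Figure D4:**
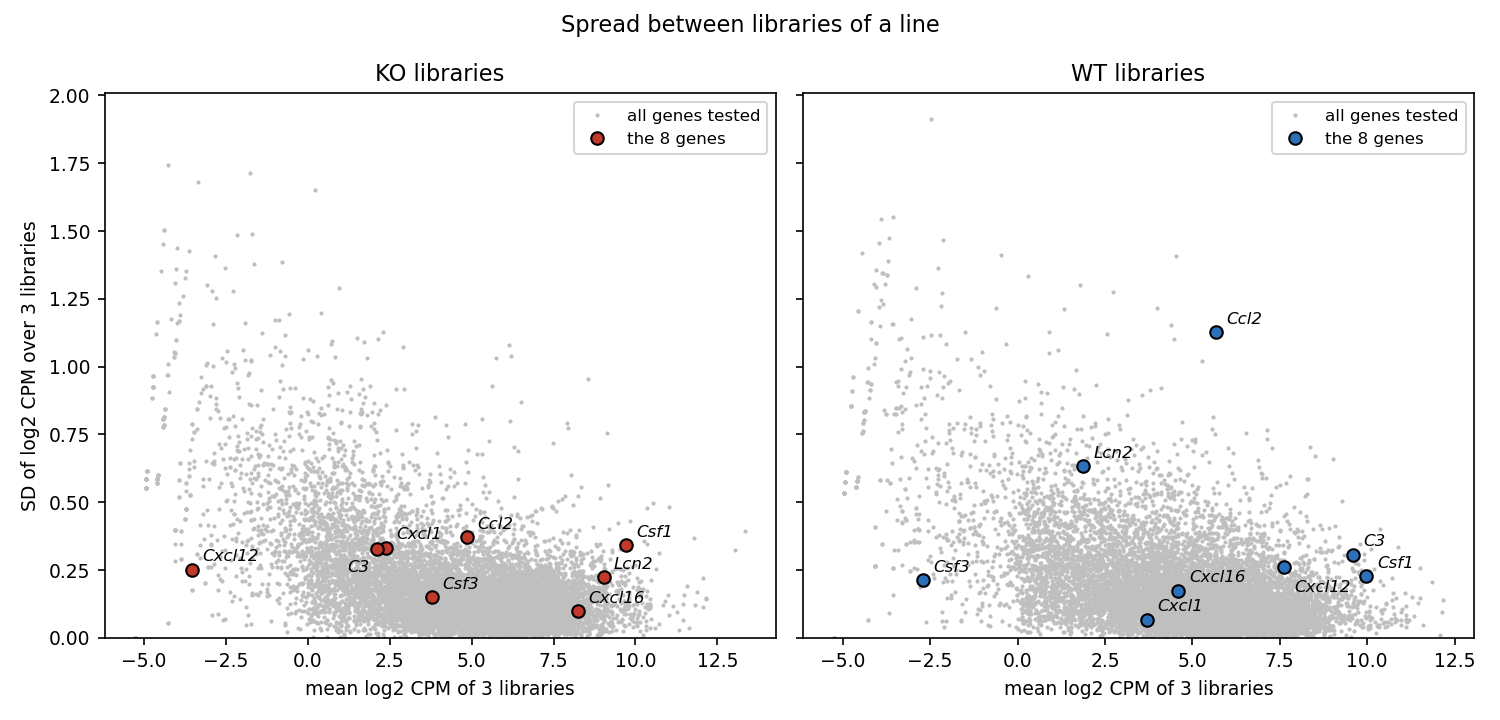
SD of log2 CPM over 3 libraries (vertical) against mean log2 CPM (horizontal) in the KO line (left) and the WT line (right); grey points are all tested genes and coloured points the 8 genes. Ccl2 in WT has an SD of 1.13, larger than that of 99.7% of tested genes there.

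Markers of the labelled cell type and of other cell types moved with the lines. Of 15 podocyte markers 10 were in the table, and their summed level was 818 to 1082 CPM in the KO libraries and 1809 to 2104 CPM in the WT libraries, with 2 higher and 6 lower past the threshold. Synpo averaged 209 ± 71 CPM in KO and 681 ± 59 CPM in WT cells, while the defining slit-diaphragm gene Nphs1 was not listed in the table. The 2 higher podocyte markers were Podxl and Cd2ap. Cd2ap averaged 390 ± 27 CPM in KO and 275 ± 38 CPM in WT cells. Of 16 markers of tubular epithelium 11 were in the table, with a sum of 6771 to 7164 CPM in the KO libraries and 2056 to 2898 CPM in the WT libraries. They went both ways, with 6 higher, all of which passed the filter through KO alone, and 5 lower. Cldn4 averaged 1271 ± 25 CPM in KO and 0.0776 ± 0.09 CPM in WT cells, or 0.0258 CPM there without replicate 2, and the kidney cadherin Cdh16 92.5 ± 27 CPM in KO and 975 ± 209 CPM in WT cells. All 8 parietal markers were in the table, summing to 4475 to 4853 CPM in the KO libraries and 909 to 931 CPM in the WT libraries. Of these 4 rose and 4 fell. Krt8 is on both the tubular and the parietal list, so both sums contain it. It averaged 2065 ± 119 CPM in KO and 0.405 ± 0.14 CPM in WT cells. The parietal marker Krt7 averaged 1278 ± 134 CPM in KO and 5.15 ± 1.7 CPM in WT cells, while Pax2, at 60.7 ± 3.6 and 352 ± 16 CPM, fell. Of 11 mesangial and fibroblast markers 6 were in the table, at 329 to 654 CPM in the KO libraries and 3467 to 3870 CPM in the WT libraries. Of these 0 rose and 5 fell. Over all genes 34.3% were higher and 33.8% lower in the KO line. The filter also fixed the direction of Wt1 among podocyte markers, Scin and Krt8 among parietal markers, and Pdgfrb among mesangial markers. The part of the cell type markers in the differences of Lcn2, C3 and the chemokines was not tested.

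Few markers of leukocytes, which make many of the same factors, were present. Of 16 leukocyte markers, Cd14, Cd68 and Csf1r were in the table, and summed to 69.8 to 88.1 CPM in the KO libraries and 64.8 to 78.7 CPM in the WT libraries. Cd14 averaged 13.3 ± 1.2 CPM in KO and 22.5 ± 4.9 CPM in WT cells (limma adjusted p = 0.00372). The defining leukocyte gene Ptprc and all 8 endothelial markers were not listed in the table.

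The genes whose profile over the 6 libraries lay nearest each of the 8 were found by the root mean square distance of centred log2 CPM. For Cxcl1 these were Hspb6 (0.06) and H2-M3 (0.10), for Cxcl16 Colca2 (0.08) and Tmc4 (0.09), and for C3 Syce2 and Col5a1 (both 0.14). For Lcn2 they were Marveld3 (0.18) and Pls1 (0.28), for Csf3 Rims2 (0.12) and Slc25a43 (0.15), and for Cxcl12 Prdx4 (0.21) and Zfp275 (0.35). For Csf1 they were Zfp119a and Phf20l1 (both 0.08), and one named for Ccl2 was Rnf213 (0.28). The 6 libraries form 2 groups, so these distances mostly describe the size of the difference between the lines. Rnf213 averaged 204 ± 34 CPM in KO and 391 ± 167 CPM in WT cells, and shared with Ccl2 the wide spread in WT.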

How the data were processed

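Messenger RNA was sequenced in 3 KO and 3 WT libraries from stranded mRNA kits, per the labels. The authors deposited 1 table of log2 CPM. The submitters' processing notes name GRCm38, edgeR, featureCounts, STAR 2.7.3a, Subread 1.6.4 and Trimmomatic 0.39. Annotation, strand setting, filter and prior were not given in the sources used here.

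All columns share a lowest value of -5.26. With it subtracted as a linear value, 100% of entries were whole multiples of 1 step per library (relative tolerance 0.001), which gave whole reads. CPM values are these reads on the authors' scaling (factors 0.983 to 1.02). Total reads cover the listed genes only. Libraries of a line differed by more than counting noise (chi-square per degree of freedom 22.2 to 58.5).

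limma 3.58.1 (R 4.3.3) with an intensity trend tested KO minus WT on the deposited log2 values, over 12616 genes above 0 log2 CPM in at least 3 libraries, with Benjamini-Hochberg adjustment. On simulated reads for this comparison (12095 genes tested, dispersion 0.01) it called 100% of 100 genes changed 2-fold, 100% of 100 changed 4-fold and 9 of 11895 unchanged. Both groups were drawn around the WT means, and the changed genes were picked among those with over 100 expected reads. The simulation therefore does not cover genes with few reads in a line, or a difference over as many genes as found here. Ratios carry exact Clopper-Pearson 95% intervals. Gene positions and exon lengths are from GENCODE M21 (12655 symbols with 1 position).

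The 8 genes and all lists were chosen with earlier results of these data known. Named from each list were up to 3 genes that rose and 3 that fell most past the threshold, without overlap and with at least 1 CPM in the higher line, besides the receptors of the 8 genes, Myo1e, the highest markers, and 2 nearest profiles per gene. Not all of these are printed, and some results are not reported here. Adam10, C1ra, C4a, C8g, Ccl7, Cebpb, Cebpg, Cfp, Masp1, Nfkb1, Pdgfrb, Ppbp, Rela, Scin, Stat3, Wt1 and Zmynd15 were chosen after their values were seen. So were Ccl5, Ccl20 and Cxcl14 in the closing section. The alternatives were voom, 2 filters, no trend, another pseudocount, 2 scalings, a replicate block and leaving out each library.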

Additional observations from a re-analysis of the deposited data

How the results depend on the processing

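The number of genes called was 8590, 8064 to 8743 under the 8 alternatives that keep all libraries and 7573 to 8323 when 1 library was left out. All 8 genes kept the sign of their difference in these 14 alternatives. With log2(CPM + 0.5) in place of the authors' prior, the difference of Cxcl12 was -8.45 (main value -11.14) and that of Csf3 4.51 (main value 6.50), because both have almost no reads in 1 line and the added constant sets the size. Under the stricter filter 1 chemokine receptor was tested and passed, in place of 2. This was Ackr3, which passed the stricter filter through the WT libraries alone, so its direction was fixed by it. Leaving out 1 library moved Ccl2 between -1.37 and -0.24 and Csf1 between -0.41 and -0.08, and Lcn2 between 6.78 and 7.35. The scalings left the median log2 difference of all genes at 0.00 to 0.01 (main value 0.01).

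The replicate numbers do not pair the libraries: deviations of same-numbered libraries correlated at 0.10, 0.08 and -0.10, and KO replicate 2 went best with WT replicate 3. With the replicate block 8395 genes passed. Csf1r then passed (adjusted p = 0.0308) and Ppbp did not (0.0512). Depth limits Cxcl12 in KO (7 reads) and Csf3 in WT (15 reads).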

Other observations

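The order of the WT libraries was alike for many chemokines. WT replicate 3 was the highest and WT replicate 1 the lowest of their group for 8 of 14 tested chemokine ligands, namely Ccl2, Ccl5, Ccl7, Ccl17, Ccl20, Ccl25, Cxcl10 and Cxcl16, beside 24.1% of all genes tested. Cxcl1, Cxcl12, Ccl27a and Ppbp had WT replicate 1 as the highest and replicate 3 as the lowest. This pattern was chosen after its values were seen, and no test is given. Ccl5, which draws T cells and monocytes, had 3.27, 2.17 and 1.09 CPM in the KO libraries, against 6.56, 8.90 and 12.1 CPM in WT libraries. Ccl20 had 3.69, 2.60 and 3.98 CPM in the KO libraries, against 1.03, 2.61 and 5.63 CPM in WT libraries, so its groups overlapped. Its log2 difference was 0.44 with all libraries, 1.02 without WT replicate 3 and -0.19 without WT replicate 1.

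Cxcl14 and Ccl28 were in the table but below the filter. Cxcl14 had 120 reads in the KO line and 1 in the WT line, a KO-to-WT ratio of 124 (counting interval 21.8 to 4920), opposite in direction to most chemokines tested.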
